A study of Mus musculus with 6 samples.

Results

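Lefty1 and Lefty2 encode secreted members of the TGF-beta superfamily that antagonise Nodal. Every non-control probe whose RefSeq accession maps to either gene was taken, which gave 1 probe for Lefty1 (A_51_P354706, NM_010094) and 1 probe for Lefty2 (A_66_P136102, NM_177099) among 55600 probes, or 2 genes among 20638 named ones. Both genes lie on mouse chromosome 1.

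The samples are total RNA of J1 mouse embryonic stem cells, a line of strain 129S4/SvJae, on 1-colour Agilent arrays. The groups are cells kept for 24 h with 3 µM SB431542 (3 arrays) and control cells kept for 24 h with DMSO (3 arrays). Both were gelatin adapted and grown on gelatin, in serum replacement medium with 1000 U/mL of the cytokine LIF. J1 is a single line. Whether each replicate was its own culture is not stated, and the p-values therefore reflect the spread among these 6 arrays, which may be technical.

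SB431542 blocks the kinase activity of the type I receptors encoded by Acvr1b, Tgfbr1 and Acvr1c, which pass on the signals of TGF-beta, activin and Nodal to Smad2 and Smad3. Lefty proteins bind Nodal and its EGF-CFC co-receptors and keep Nodal from signalling. Nodal signalling in turn induces both Lefty genes through Smad proteins and the factor Foxh1, so the pair closes a negative feedback loop, known in the mouse embryo for setting left-right asymmetry and limiting mesoderm. Both are also transcribed in mouse embryonic stem cells. The comparison asks what becomes of these transcripts when the receptors are blocked in self-renewing cells.

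Between 63.9% and 66.2% of the non-control spots of an array were well above background, and no spot was saturated (0 on each array). Across the tested probes, arrays correlated at 0.994 to 0.996 within SB431542, at 0.997 within DMSO and at 0.990 to 0.993 between the groups. SB431542 replicate 3 lay on slide 2 and the other arrays on slide 1. Markers of several cell types are given beside the 6.49% of all tested probes that fell and the 4.31% that rose, at an adjusted p of 0.05. All 7 embryonic stem cell markers examined were well above background on all 6 arrays. Of these, 2 fell (Utf1 and Dppa5a), and the summed signal of all 7 ran from 43019% to 48266% of the 75th percentile of an array in SB431542, against 57599% to 59786% in DMSO. Dppa5a alone held 25578% to 28758% in SB431542 and 36818% to 39626% in DMSO. Of 7 fibroblast markers, Col1a2 fell, and Dcn, flagged well above background on 0 SB431542 and 3 DMSO arrays, was tested only through its DMSO signal and was at least 1.85-fold lower in SB431542. The fibroblast list had a summed signal of 177% to 197% in SB431542 and 219% to 234% in DMSO, while Lum and Postn were flagged well above background on 0 arrays. Of the primitive endoderm markers 0 of 6 changed, of the 4 tested neuroectoderm markers 2 fell (Sox1 and Nes) and of the 3 tested mesoderm markers 0 changed. The summed signal of the mesoderm list was 1151% to 1455% in SB431542 and 1038% to 1147% in DMSO, of which Kdr alone held 1124% to 1421% in SB431542 and 1013% to 1116% in DMSO. The part of these markers in the results below was not tested.

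Lefty1 signal fell to near that of the negative control spots with the inhibitor. The processed signal, an intensity after subtraction of background, was 10.4, 15.0 and 18.3 on the 3 SB431542 arrays, against 10517, 9807 and 10615 on the 3 DMSO arrays. The groups were far apart, and the 3 DMSO arrays lay close together. On SB431542 replicate 1 the spot was not well above background, whereas on replicates 2 and 3 it was. The scanner program's own error was 18.3% to 23.7% of the signal on the SB431542 arrays and 10% on each DMSO array. Of the 308 negative control spots of an array, 5, 3 and 4 reached the Lefty1 signal on SB431542 replicates 1, 2 and 3, and 0 did so on any DMSO array. Against the median of those controls, Lefty1 stood 5.23, 7.18 and 7.09 times higher in SB431542 and 4695 to 5064 times higher in DMSO.

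Lefty2 also fell, and in SB431542 stood 51.1 to 78.6 times higher than the median of the negative control spots. It had 156, 125 and 132 in SB431542 cells, against 4291, 4225 and 4009 in DMSO cells. Every SB431542 array was well above background and lay far below every DMSO array. Of the 308 negative control spots, 1 reached the Lefty2 signal on SB431542 replicate 3 and 0 did so on each other array. The program's error was 10.1% to 10.2% in SB431542 and 10% in DMSO. In bulk samples such as these, fewer cells that express a gene and less RNA per cell cannot be told apart.

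**Figure D1:**
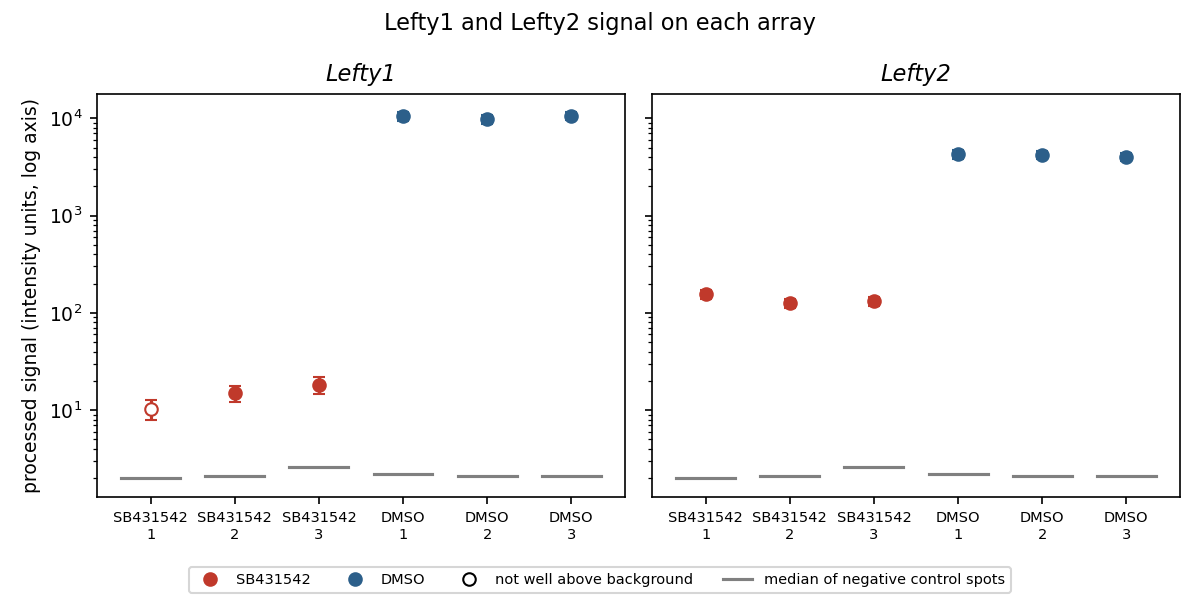
Processed signal (log axis) of the Lefty1 probe (left) and the Lefty2 probe (right) on each array, with SB431542 arrays in red and DMSO arrays in blue. Bars are the scanner program's error and grey lines the median of the negative control spots. Lefty1 lies between 10.4 and 18.3 in SB431542, near the controls, and Lefty2 between 125 and 156.

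For the tests, the log2 signal was set relative to the 75th percentile of its array, and each probe was fitted with limma. On this scale Lefty1 averaged -5.16 ± 0.40 in SB431542 and 4.27 ± 0.06 in DMSO (SD, n = 3 each). Its log2 change, SB431542 minus DMSO, was -9.43 ± 0.20 (SE, limma adjusted p = 4.11e-05), a 688-fold lower level with a 95% interval of 492 to 964. Lefty2 averaged -1.89 ± 0.19 in SB431542 and 2.96 ± 0.05 in DMSO (SD, n = 3 each). It changed by -4.85 ± 0.11 (SE, limma adjusted p = 4.51e-05), a 28.8-fold lower level with an interval of 24.1 to 34.5. Both of the 2 probes passed the threshold of an adjusted p of 0.05, beside 6.49% of the 36184 tested probes that passed it in this direction and 10.8% that passed it in either. No overlap in this direction was seen for 17.1% of tested probes. A call with an at least 2-fold lower level was made for 1.17% of them.

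The size of the Lefty1 change depended on how background was treated. With normexp correction of the median signals and an offset of 50, which raises low values, Lefty1 was 119-fold lower (log2 change -6.89) and Lefty2 20.5-fold lower (-4.36). Without SB431542 replicate 1, whose Lefty1 spot was not well above background, the Lefty1 log2 change was -9.20. On slide 1 alone it was -9.54, and that of Lefty2 was -4.74. Lefty1 was not tested when a probe had to be well above background on all 6 arrays.

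**Figure D2:**
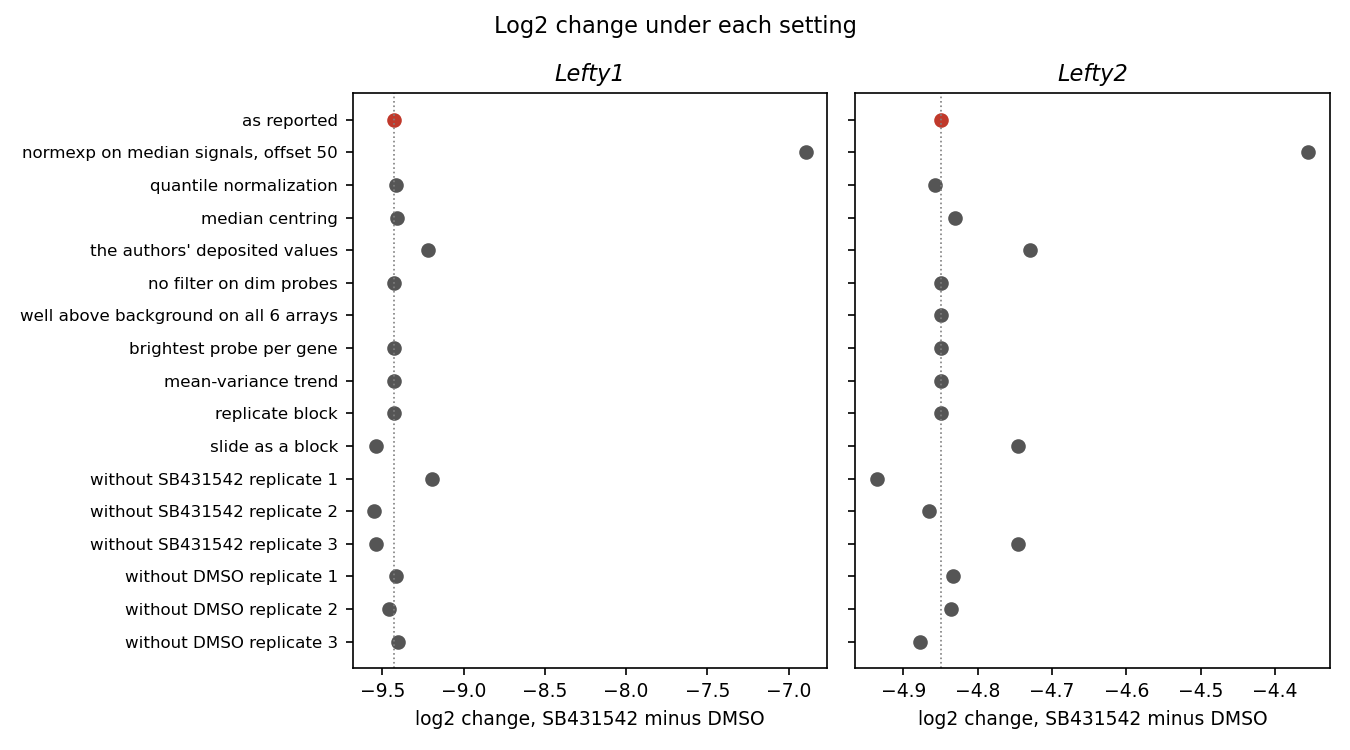
Log2 change (SB431542 minus DMSO) of Lefty1 (left) and Lefty2 (right) as reported (red, dotted line) and under each other setting (grey). All values are below 0, and the axes do not include 0. The normexp setting stands apart at -6.89 for Lefty1 and -4.36 for Lefty2.

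The spread between arrays was unequal. The SD of Lefty1 in SB431542 (0.40 on the log2 scale) compares with a median of 0.30 over the 3959 tested probes within 0.5 of its level there, and that of Lefty2 (0.19) with 0.13 over 3595 probes chosen in the same way. In DMSO the SDs of 0.06 and 0.05 stood beside medians of 0.05 for both. The array with the lowest scaled level differed between the genes. In SB431542 it was replicate 1 for Lefty1 and replicate 3 for Lefty2.

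The ratio of the probes within an array did not overlap between the groups. The log2 of Lefty1 over Lefty2 was -3.91, -3.06 and -2.85 in SB431542 and 1.29, 1.21 and 1.40 in DMSO. The value of -3.91 uses the Lefty1 spot of SB431542 replicate 1, which was not well above background. The levels of 2 probes cannot be set against each other, so only the difference between the groups is read, which was -4.58 (exact permutation test, two-sided, p = 0.1, the smallest p that 3 against 3 arrays can give). Under normexp it was -2.54. The genes are close paralogs, the probe sequences were not used here, and cross-hybridisation was not tested. The ratio is of probe signals and not of transcript numbers. An annotated lncRNA gene, Gm39715, overlaps Lefty1 in the RefSeq table, and its part in the Lefty1 signal was not tested.

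Genes near the pair fell too. They were taken from the RefSeq gene order of chromosome 1 (assembly GRCm38.p6). Of the genes in the window around Lefty1 and Lefty2 that reaches 5 annotated genes to each side, 5 had a tested probe, and of these 3 fell and 0 rose, beside 6.49% and 4.31% of all tested probes. Those that fell included Tmem63a and Ephx1.

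Tmem63a, which encodes a membrane protein of a family of mechanically gated ion channels, lies beside Lefty1. It had signals of 133, 120 and 130 in SB431542 and of 1550, 1542 and 1423 in DMSO, without overlap. Its log2 change was -3.48 ± 0.08 (SE, limma adjusted p = 4.77e-05), an 11.2-fold lower level. Over the alternative settings this change ran from -3.52 to -2.93.

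Ephx1, the microsomal epoxide hydrolase gene, follows Tmem63a, and its 2 probes disagreed. The brighter had 1861, 1753 and 1954 in SB431542 and 4100, 3848 and 3945 in DMSO, a log2 change of -1.02 ± 0.06 (limma adjusted p = 0.000950). The dimmer had 445, 424 and 616 in SB431542 and 560, 615 and 571 in DMSO, so that the groups overlapped, with a log2 change of -0.17 ± 0.10 (limma adjusted p = 0.333). On the outer side of Lefty2, the splicing and replication factor gene Sde2 had a log2 change of 0.10 ± 0.05 (limma adjusted p = 0.268). Beyond Ephx1, 9130409I23Rik had one of 0.16 ± 0.29 (limma adjusted p = 0.764), at signals of 10.5 to 12.8 in SB431542 and 8.02 to 17.7 in DMSO.

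In a wider window of 10 tested protein-coding genes on each side, chosen after the values were seen, 21 genes other than Lefty1 and Lefty2 were tested. By their brightest probe 5 fell and 0 rose, beside 6.49% and 4.31% of all tested probes. The 16 of them outside the narrower window included 2 that fell, beside the same 6.49% of all tested probes. These were Itpkb, an inositol trisphosphate kinase gene (-0.36 ± 0.06, limma adjusted p = 0.0196, with 0.23 at its other probe), and Cnih3, an AMPA receptor auxiliary subunit gene (-1.77 ± 0.20, limma adjusted p = 0.00522), whose spot cleared the background flag on 1 of 3 SB431542 arrays. The called Itpkb probe had signals of 14.6 to 18.5 in SB431542 and 20.8 to 22.9 in DMSO. The remaining 14 of the 16 did not pass the test by their brightest probe, and the median over the 16 was -0.11. Among these 14, the dimmest tested probe of Cdc42bpa fell (-0.54 ± 0.12, limma adjusted p = 0.0430), at signals of 24.3 to 35.4 in SB431542 and 38.6 to 44.9 in DMSO. Its brighter probes had log2 changes of -0.25, 0.05 and -0.17 and did not pass.

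**Figure D3:**
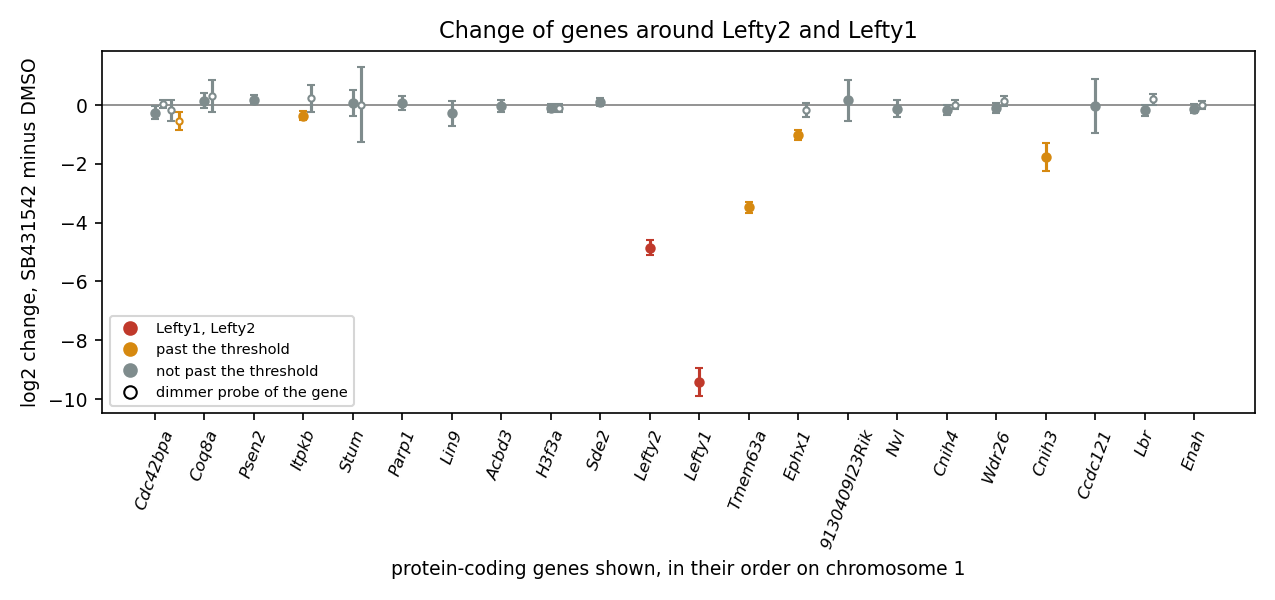
Log2 change (SB431542 minus DMSO) with 95% intervals from limma for probes of protein-coding genes in their order along chromosome 1. Spacing is by order of the genes shown and not to scale. Lefty2 (-4.85), Lefty1 (-9.43), Tmem63a (-3.48) and the brighter Ephx1 probe (-1.02) lie below 0, as does Cnih3 (-1.77) farther along the order.

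RefSeq promoter sequences (GRCm38.p6) were matched for Tmem63a and Ephx1. They are shown because both genes fell beside the Lefty pair, as the 250 bases before the start site, with matches to the Smad motif CAGAC on either strand in capitals. The regions are chr1:180942268-180942517 on the plus strand for Tmem63a and chr1:181017570-181017819 on the minus strand for Ephx1.
Tmem63a: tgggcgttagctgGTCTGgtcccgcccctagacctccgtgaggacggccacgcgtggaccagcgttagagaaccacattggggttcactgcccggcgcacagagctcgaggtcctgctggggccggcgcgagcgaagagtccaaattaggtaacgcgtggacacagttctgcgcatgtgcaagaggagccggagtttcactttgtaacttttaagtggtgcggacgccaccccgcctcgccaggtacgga
Ephx1: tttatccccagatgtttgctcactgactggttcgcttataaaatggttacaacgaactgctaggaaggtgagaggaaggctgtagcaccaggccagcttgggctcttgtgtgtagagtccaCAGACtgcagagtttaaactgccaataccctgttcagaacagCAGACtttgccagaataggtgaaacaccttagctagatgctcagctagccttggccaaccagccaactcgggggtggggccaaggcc
The Tmem63a stretch holds 1 match, written as its reverse complement GTCTG, and the Ephx1 stretch holds 2. Of 32851 promoter stretches of this length, 42.2% hold at least 1 such match. The Foxh1 motif TGTNNATT, searched on either strand, has 0 matches in both stretches and is found in 10.9% of the 32851.

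The genes with the most similar profile were ranked by the root mean square difference of log2 levels over the 6 arrays, after subtraction of each probe's DMSO mean, among 15645 other named genes. Nearest to Lefty2 were Smad7, the inhibitory Smad gene (0.21 on the log2 scale, Pearson r = 0.999 over 6 arrays), the homeobox gene Hoxb13 (0.22, r = 0.999), Mup6 (0.71), Fgf15 (0.96) and Tmem63a (0.97, r = 0.9997). From Lefty1, Lefty2 differed by 3.25, Smad7 by 3.43, Hoxb13 by 3.44 and Mup6, a member of a family of near-identical copies, by 3.92. The arrays fall into the 2 groups that set these correlations, so they are given as a description.

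**Figure D4:**
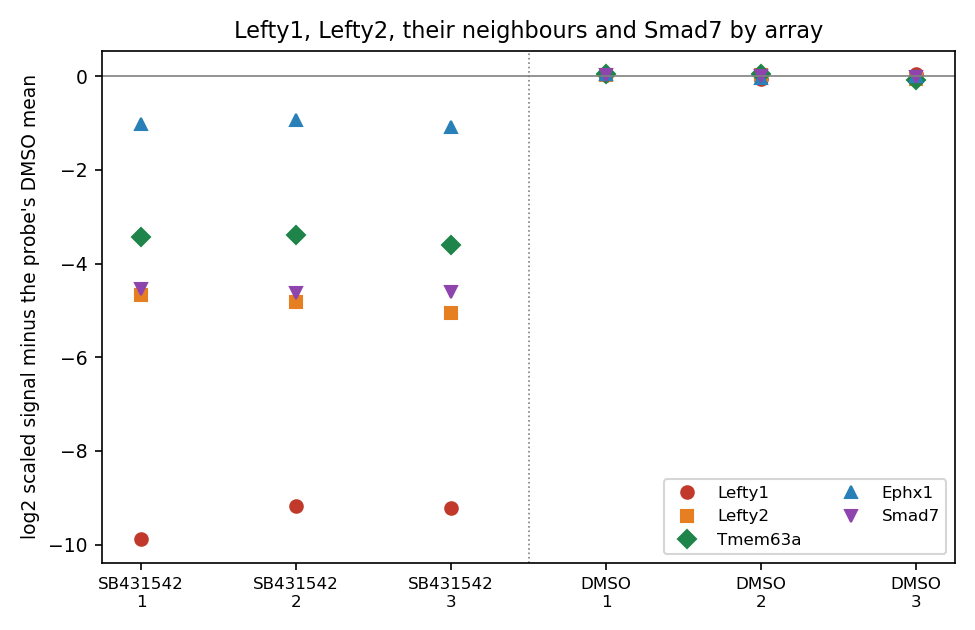
Log2 scaled signal minus the probe's DMSO mean on each array, with SB431542 arrays on the left and DMSO arrays on the right. Lefty2 and Smad7 lie together in SB431542, with mean changes of -4.85 and -4.59, Lefty1 lies below them at -9.43, and Tmem63a and Ephx1 (brighter probe) lie nearer to 0.

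The pathway that acts on the Lefty genes was examined in a list of 49 further genes, of which 43 were tested. Of these, 14 fell and 2 rose, beside 6.49% and 4.31% of all tested probes, with a median log2 change of -0.09 against 0.02 over all tested probes. By role, falls were called among ligands, co-receptors, extracellular antagonists (2 of 4 tested), feedback genes inside the cell and target genes (2 of 7 tested). Rises were called for 1 of 2 co-receptor genes and 1 of 4 transducer genes. The test was passed by 0 of 5 tested receptor genes, 0 of 3 convertase genes and 0 of 4 factors reported at the Lefty1 promoter.

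Nodal, the ligand that Lefty proteins antagonise, had signals of 5349, 5182 and 5797 in SB431542 and 8791, 8732 and 9072 in DMSO, without overlap. Its log2 change was -0.63 ± 0.06 (limma adjusted p = 0.00411), a 1.54-fold lower level. Of 7 tested ligand genes 4 fell and 0 rose, the others being Gdf1 (-0.50 ± 0.06), which encodes a partner of Nodal, Tgfb2 (-0.64 ± 0.08) and the activin B subunit gene Inhbb (-0.41 ± 0.06). The second probe of Gdf1 had a log2 change of 0.26. The adjusted p of Inhbb was 0.0641, 0.0517 and 0.0690 without DMSO replicates 1, 2 and 3, and that of Tgfb2, at signals of 15.9 to 17.5 in SB431542 and 25.7 to 28.4 in DMSO, was 0.494 under normexp. Gdf3 (-0.12 ± 0.05), Tgfb1 (-0.05 ± 0.10) and Tgfb3 (0.04 ± 0.06) did not pass, and Inhba was flagged as well above background on 0 of 6 arrays.

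The EGF-CFC co-receptor genes, whose proteins Lefty can bind, moved in opposite directions. Tdgf1 (Cripto) had 7702, 7111 and 10196 in SB431542 and 17535, 18346 and 17716 in DMSO, a log2 change of -1.04 ± 0.08 (limma adjusted p = 0.00189), with -1.12 at each of its other 2 probes. Cfc1 (Cryptic) had 47.0, 47.6 and 69.0 in SB431542 and 26.2, 27.3 and 31.9 in DMSO, a log2 change of 1.00 ± 0.13 (limma adjusted p = 0.00845). Neither gene's groups overlapped, beside 17.1% of all tested probes without overlap in the lower direction and 17.7% in the higher. Under normexp the log2 changes were -1.04 for Tdgf1 and 0.49 for the dimmer Cfc1.

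Among the receptors, the type I genes Acvr1b (0.02, 95% interval -0.38 to 0.42) and Tgfbr1 (0.04, -0.11 to 0.19) and the type II genes Acvr2a (0.05, -0.10 to 0.20), Acvr2b (0.06, -0.18 to 0.29) and Tgfbr2 (0.21, -0.20 to 0.62) did not pass the test by their brightest probes. Dimmer tested probes had log2 changes of -0.07 for Tgfbr1, -0.34 for Acvr2a and 0.44 for Tgfbr2. Acvr1c was flagged well above background on 0 arrays. Of the transducers, Smad3 rose by 0.28 ± 0.06 (limma adjusted p = 0.0482), a call that was lost when any of the 6 arrays was left out (adjusted p 0.0723 to 0.158). Foxh1 (0.26 ± 0.07), Smad2 (0.14 ± 0.07) and Smad4 (-0.11 ± 0.09) did not pass, the adjusted p of Foxh1 being 0.0721, under normexp 0.0312 and with a mean-variance trend 0.0214. The convertase genes Furin (0.15 ± 0.07), Pcsk5 (-0.10 ± 0.16) and Pcsk6 (0.08 ± 0.07), whose products cleave precursors of this superfamily, did not pass either.

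Other extracellular antagonists had smaller log2 changes than the Lefty genes, a difference that was not tested. Of 4 tested, the activin-binding follistatin genes Fst (-0.60 ± 0.09) and Fstl3 (-0.52 ± 0.08) fell, with limma adjusted p values of 0.0133 and 0.0132. Without DMSO replicates 2 and 3 these were 0.0643 and 0.0602 for Fst and 0.0656 and 0.0593 for Fstl3. Dand5, which encodes a Nodal antagonist of the Cerberus family, had a log2 change of 0.05 ± 0.11 and Tmeff1, a transmembrane protein gene whose product binds Tdgf1 in the frog, one of -0.09 ± 0.06, and neither passed. Cer1, another Nodal antagonist gene, was flagged well above background on 0 arrays.

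Of 7 tested feedback genes that act inside the cell, 5 fell and 0 rose. Smad7 had 118, 98.1 and 125 in SB431542 and 2942, 2852 and 2859 in DMSO, a log2 change of -4.59 ± 0.05 (limma adjusted p = 3.9e-06), or a 24.2-fold lower level (15.8-fold under normexp). Pmepa1, whose product sequesters receptor Smads, had 35.5, 22.9 and 28.3 in SB431542 and 198, 180 and 184 in DMSO, a log2 change of -2.64 ± 0.14, or a 6.23-fold lower level (2.56-fold under normexp). The groups of both genes were well separated. Skil, a Smad corepressor gene, changed by -1.34 ± 0.07, Smad6 by -0.62 ± 0.05 and Ski by -0.63 ± 0.11. The adjusted p of Ski, 0.0193 with all arrays, was 0.0533 without SB431542 replicate 3 and 0.0765, 0.0698 and 0.0803 without DMSO replicates 1, 2 and 3. The homeobox corepressor genes Tgif1 (-0.20 ± 0.06) and Tgif2 (0.04 ± 0.07) did not pass, and Bambi was flagged well above background on 0 arrays.

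Among developmental target genes of Nodal, 2 of 7 tested fell and 0 rose, including the growth factor gene Fgf8 (-1.58 ± 0.08, limma adjusted p = 0.000452, 3.00-fold lower and 1.82-fold under normexp, with -2.34 at another probe). The T-box gene Eomes (-0.02 ± 0.06), the homeobox genes Gsc (0.49 ± 0.23) and Lhx1 (0.06 ± 0.09) and the endoderm factor genes Foxa2 (-0.10 ± 0.12) and Sox17 (-0.04 ± 0.07) did not pass. Mixl1 had that flag on 0 arrays, and T, on 0 SB431542 and 2 DMSO arrays, was not tested. The factors reported at the Lefty1 promoter in mouse embryonic stem cells did not pass with all arrays. Their log2 changes were -0.29 for Pou5f1 (95% interval -0.63 to 0.06), 0.03 for Sox2 (-0.11 to 0.16), -0.16 for Klf4 (-0.31 to -0.01) and -0.02 for Nanog (-0.19 to 0.14). Without SB431542 replicate 2, Pou5f1 passed (-0.44, limma adjusted p = 0.0385).

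**Figure D5:**
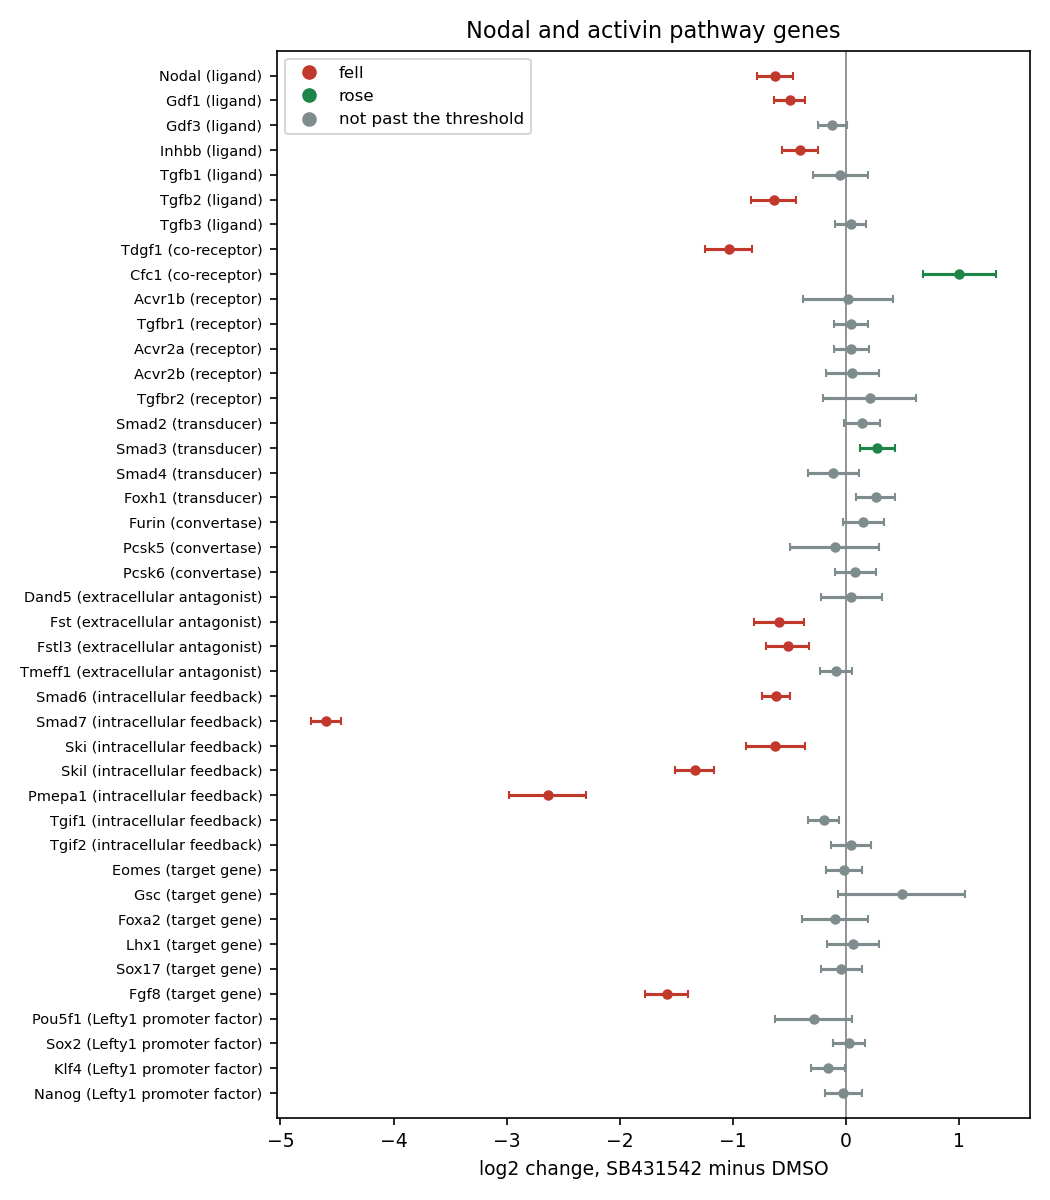
Log2 change (SB431542 minus DMSO) with 95% intervals from limma for 42 of the 43 tested genes of the pathway list, by role. Red genes fell, green genes rose and grey genes did not pass. Each gene is drawn by its brightest tested probe. Of the genes drawn, Smad7 (-4.59) and Pmepa1 (-2.64) lie farthest below 0, and the 5 receptor genes lie at 0.02 to 0.21.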

How the data were processed

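Each scanner file holds one array. The deposited intensity values (processed signal, its error, and median spot and background signals) come from Agilent Feature Extraction, which subtracted background and detrended within the array, per the file headers; version 10.7 is named in the submitters' processing notes. Flags for well above background, saturated and outlier spots are scores of 0 or 1, per the file headers. A further table holds log2 values deposited by the authors; their column medians ran from 5.18 to 5.19, how they were normalized is not stated, and they were an alternative.

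Outlier spots were left out (81 probes lost) and spots of a probe averaged. Log2 processed signals were set relative to the 75th percentile of each array. The 36184 probes flagged well above background on 3 or more of the 6 arrays were kept and fitted singly with limma 3.58.1 (lmFit, eBayes) in R 4.3.3, two-sided, with p-values adjusted by Benjamini-Hochberg over this whole set, and a threshold of 0.05. The steps were tested on simulated data. Array number limits the precision.

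The files name probes by accession, looked up, versions dropped, in RefSeq's gene table (GRCm38.p6), which named 27200 of 55600 probes. The array grid uses mm9, so that table gave only names, gene order and which genes overlap. The brightest probe stood for a gene. "Rose" and "fell" are used of probes past the threshold. All genes of the pathway list, the neighbours and the 5 most similar profiles per Lefty gene were to be named; some of them are not reported here and stay in the counts. The members and lists were chosen with earlier results of these data known. Alternatives covered background correction, scaling, filters, probe choice, blocks and left-out arrays. Python 3.11.15 was also used.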

Additional observations from a re-analysis of the deposited data

How the results depend on the processing

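The log2 changes of Lefty1 and Lefty2 stayed below 0 and past the threshold under every alternative that gave them a value. Adjusted p-values ran from 2.62e-11 to 0.00516 for Lefty1 and from 1.50e-09 to 0.00456 for Lefty2, and the changes from -9.55 to -9.20 and from -4.94 to -4.74 when single arrays were left out. Of all tested probes 3908 changed, 1559 higher and 2349 lower. Without a filter on dim probes these counts were 2256, 803 and 1453, and with a replicate block 1626, 518 and 1108. When single arrays were left out, they ran from 1594 to 3304, from 560 to 1350 and from 1034 to 1954. Leaving out SB431542 replicate 2 gave a total of 2520, and leaving out DMSO replicate 1, 2 or 3 gave 1747, 1594 or 1663. Pathway genes called lower numbered 14 as reported and 10 to 15 over the alternatives. The count was 10 under the replicate block and without DMSO replicate 2 or 3. Pathway genes called higher numbered 1 in place of 2 under quantile normalization, the authors' deposited values, no filter, the replicate block and the slide block, and with any single array left out (1 to 1). They numbered 3 under normexp and with a mean-variance trend. The wider window held 5 lower neighbours among 21 tested genes, against 3 among 5 in the narrower window that it contains. The cause of the shifts in the probe and pathway counts was not tested. Among 49 single-gene results, 749 values stayed on their side of the threshold, 28 lost it and 4 gained it. The sign differed in 20 values of 11 of these results, 0 of them of a result past the threshold. The Lefty1 to Lefty2 ratio shifted by -4.79 to -4.26 with single arrays left out, where the exact permutation p cannot go below 0.2; under the pairing it was -4.58 (p = 0.25). Arrays with the same replicate number had correlated deviations of 6e-04, 0.0662 and -0.0444, so the numbers were not taken to pair them. SB431542 replicate 3 alone was on the second slide, so the slide block equals leaving it out. Signal near background limits the Lefty1 value in SB431542, and 3 arrays a group limit the precision of all values.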

Other observations

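Among 588 tested chromosome 1 probes that the array names by position, one was chosen after its values were seen, as that with the lowest log2 change. It lay in chr1:182808654-182815659 (mm9), on the strand marked R. Its signal was 1.84, 2.17 and 2.38 in SB431542, well above background on 0 arrays, and 15.1, 12.7 and 16.8 in DMSO, well above background on 3. It was kept only through its DMSO signal, so no test is given. It was at least 1.48-fold lower in SB431542, taking the lowest signal well above background on each array as the floor. The other 2 probes of the same region had log2 changes of -0.25 and -0.21 and did not pass the test, and their groups overlapped. The gene table is of another build, so the distance of this region from Lefty1 and Lefty2 was not computed.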
